A study of Danio rerio with 2 samples.

Results

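The genes described here are the 8 cone opsin genes of the zebrafish, out of 26597 genes in the deposited table. They were taken by gene ID or gene name: the red opsins opn1lw1 and opn1lw2, the green opsins opn1mw1, opn1mw2, opn1mw3 and opn1mw4, the blue opsin opn1sw2, and the ultraviolet (UV) opsin, which the names table lists as OPN1SW. All 8 were found. The study sequenced RNA of 1 salvianolate-treated library and 1 wild-type (WT) library, both labelled as cardiac tissue. Salvianolate is made from the roots of Salvia miltiorrhiza, a plant of traditional Chinese medicine, and holds its salvianolic acids; the series concerns its action against cardiotoxicity. The labels state neither dose, duration, age nor number of animals, and the title of the treated sample alone speaks of embryos. In the single-library files the count column is headed DSDF for the treated and AB72h for the WT library, names that no label explains, so no age or strain is taken from them. With 1 library per group there was no replicate check and no test between the conditions, and every interval below is an exact 95% interval that covers counting error only. The opsins were chosen by the ratio of treated to WT CPM in these same libraries, several of them being among the largest, so their ratios describe the 2 libraries and support nothing further.

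Cone opsins are the light-absorbing receptor proteins of cone photoreceptors. Each consists of a seven-helix membrane protein that carries a vitamin A-derived chromophore, and its amino acids set the wavelength to which the cone responds. Light-activated opsin switches on the cone G protein transducin, which activates a phosphodiesterase, lowers cyclic GMP and closes cation channels of the outer segment. The zebrafish retina has red, green, blue and UV cones, and its red and green opsins exist as tandem copies that are switched on at different times and in different parts of the retina. In developing zebrafish opn1lw2, opn1mw1 and opn1mw2 are known as the early copies of the central retina, and opn1lw1, opn1mw3 and opn1mw4 as later copies of its periphery.

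The treated library held 19295536 estimated counts and the WT library 19531808, and a count of 3 amounted to 0.152 CPM (counts scaled to library size) in the treated library and to 0.157 CPM in the WT library. Of the 19829 genes that reached 1 CPM in either library, 533 stood higher in the treated library by 2-fold or more and 143 stood lower by as much, each with an interval that excluded a ratio of 1. The design text of the series reports more genes down-regulated than up-regulated, which is opposite to this split; all directions here follow the library labels. Heart genes, the markers of the labelled tissue, were low in both libraries. MYL7, a myosin light chain of heart muscle, stood at 14.7 CPM in the treated and 19.2 CPM in the WT library, and 14 heart genes summed to 119 CPM in the treated and 131 CPM in the WT library. The 8 cone opsins, which belong to the eye, summed to 788 CPM in the treated and 150 CPM in the WT library, and 12 skeletal muscle genes to 36988 CPM in the treated and 33617 CPM in the WT library. Both labels name cardiac tissue alone, while these levels include genes of the eye and of skeletal muscle.

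Cone opsin transcripts of every colour class stood higher in the salvianolate-treated library than in the WT library. Summed over the 8 genes, 15539 counts fell on cone opsins in the treated library, against 2858 in the WT library, or 0.0805% of all counts in the treated and 0.0146% in the WT library. The summed level was 788 CPM (776 to 801) in the treated and 150 CPM (144 to 155) in the WT library, a 5.27-fold difference (5.06 to 5.49). In a whole library, more cone cells and more opsin RNA per cone cannot be told apart. The classes differed from one another much less than the libraries did, with folds between 4.97 and 6.11. Within both red and green, 1 copy supplied nearly all of the counts, so the class sums are close to the values of opn1lw2 and opn1mw1.

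Red opsin was the most abundant class. The gene opn1lw2 (ENSDARG00000044861) had 7256 counts in the treated library, against 1416 in the WT library. Its length-scaled level was 229 FPKM (fragments scaled to transcript length and library size) in the treated and 44.2 FPKM in the WT library. The other red copy, opn1lw1 (ENSDARG00000044862), had 2 counts in the treated library and 0 in the WT library, both at or under the limit of 3 counts, so no fold is given. Of the 7258 red opsin counts of the treated library, opn1lw1 took 0.0276% (0.00334% to 0.0995%). Of the 1416 of the WT library it took 0, which allows a share of up to 0.260%. Within the depth reached, red opsin counts in both libraries thus fell almost wholly on opn1lw2. How reads shared by near-identical copies were placed is not stated, and the intervals do not cover it. Summed over both copies the red class stood at 368 CPM (360 to 377) in the treated and 74.1 CPM (70.3 to 78.1) in the WT library, 4.97-fold higher (4.69 to 5.26), the lowest fold of the 4 classes.

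The green opsin genes stand next to each other in a row, and counts fell from the first copy to the next. For opn1mw3 and opn1mw4, both under the limit of 3 counts, no order was measured. The first gene of the row, opn1mw1 (ENSDARG00000097008), had 2255 counts in the treated and 360 in the WT library. The next, opn1mw2 (ENSDARG00000044280), had 69 counts in the treated library, against 9 in the WT library. The third, opn1mw3 (ENSDARG00000044279), had 2 counts in the treated and 0 in the WT library, and the last, opn1mw4 (ENSDARG00000000638), had 0 in both. The copy opn1mw2 was a small part of the class in both libraries, at 2.97% (2.31% to 3.74%) of the green counts in the treated and 2.44% (1.12% to 4.58%) in the WT library. These intervals overlap, and a difference in the use of the 2 detected green copies was not tested. At 3.50 CPM in the treated and 0.471 CPM in the WT library, opn1mw2 passed the floor of 1 CPM only through the treated library. Its 7.43-fold difference carries a wide interval of 3.70 to 16.9, which takes in the 6.07-fold (5.43 to 6.80) of opn1mw1. For opn1mw4 a count of 0 allows up to 0.158% of green counts in the treated and 0.995% in the WT library. The whole green class stood at 118 CPM (113 to 122.8) in the treated and 19.3 CPM (17.4 to 21.4) in the WT library, 6.11-fold higher (5.47 to 6.84), the highest fold of the 4 classes.

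Blue and UV opsins are single genes. The blue opsin opn1sw2 (ENSDARG00000017274) had 1704 counts in the treated and 277 in the WT library, which is 62.5 FPKM in the treated and 10.04 FPKM in the WT library. On the CPM scale it was 5.96-fold higher (5.25 to 6.79) in the treated library. The UV opsin OPN1SW (ENSDARG00000045677) had 4251 counts in the treated and 796 in the WT library, or 124 FPKM in the treated and 22.9 FPKM in the WT library. Its CPM differed 5.18-fold (4.80 to 5.59). Both intervals overlap, and a difference between the blue and UV folds was not tested.

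**Figure D1:**
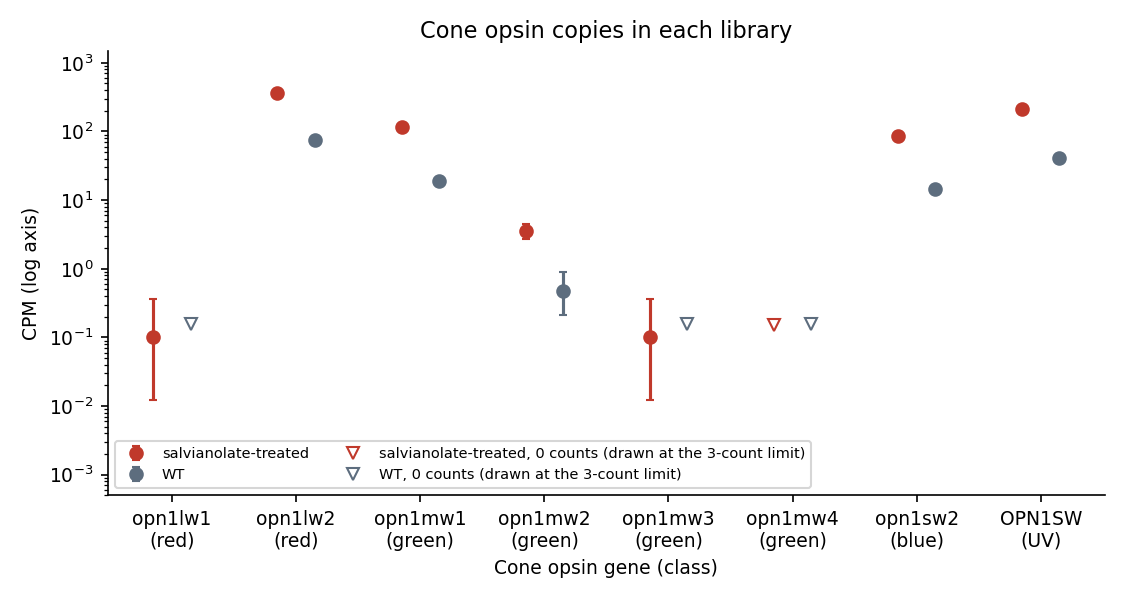
CPM of each cone opsin gene (log axis) in the salvianolate-treated library (red, left of each pair) and the WT library (grey); bars are exact 95% Poisson intervals and open triangles mark 0 counts, drawn at the CPM of 3 counts. The genes opn1lw2, OPN1SW, opn1mw1 and opn1sw2 lie well above the rest in both libraries, and opn1lw1, opn1mw3 and opn1mw4 have at most 2 counts.

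By length-scaled level the order of the detected genes was the same in both libraries. It ran from opn1lw2 through OPN1SW, opn1mw1 and opn1sw2 to opn1mw2, with 229, 124, 74.3, 62.5 and 2.15 FPKM in the treated library. In the WT library the same genes had 44.2, 22.9, 11.7, 10.04 and 0.28 FPKM. With 1 library per group the spread around these levels is not known, so only counting error can be set against the gaps. The closest neighbours in the order were opn1mw1 and opn1sw2. The ratio of green to blue opsin was 1.22 by FPKM in the treated and 1.19 in the WT library.

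The make-up of the cone opsin counts does not depend on how the libraries are scaled. Red opsin took 46.7% (45.9% to 47.5%) of them in the treated library, against 49.5% (47.7% to 51.4%) in the WT library. Green opsin took 14.97% (14.4% to 15.5%) in the treated and 12.9% (11.7% to 14.2%) in the WT library. For both red and green the 2 intervals do not overlap, red being the smaller and green the larger share in the treated library. Blue opsin made up 11.0% (10.5% to 11.5%) in the treated and 9.69% (8.63% to 10.8%) in the WT library, and UV opsin 27.4% (26.7% to 28.1%) in the treated and 27.9% (26.2% to 29.5%) in the WT library. The intervals of these classes overlap, which does not exclude a difference. Shares of counts favour long transcripts; shares of the summed FPKM were 46.6% red, 15.5% green, 12.7% blue and 25.2% UV in the treated library. In the WT library they were 49.6%, 13.5%, 11.3% and 25.7% for the same classes.

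The same shift is visible between pairs of classes, where the transcript lengths cancel when one library is set beside the other. There were 3.12 red counts (2.98 to 3.27) for each green count in the treated library, against 3.84 (3.42 to 4.31) in the WT library. For each blue count there were 4.26 red counts (4.04 to 4.49) in the treated and 5.11 (4.49 to 5.84) in the WT library, with intervals that just touch. The ratio of red to UV counts was 1.71 (1.64 to 1.77) in the treated and 1.78 (1.63 to 1.94) in the WT library. That of green to UV counts was 0.547 (0.520 to 0.576) in the treated and 0.464 (0.409 to 0.525) in the WT library, that of blue to UV counts 0.401 (0.379 to 0.424) in the treated and 0.348 (0.302 to 0.399) in the WT library, and that of green to blue 1.37 (1.28 to 1.45) in the treated and 1.33 (1.14 to 1.56) in the WT library. Of the 6 pairs, red against green alone had intervals that did not overlap. Overlap does not exclude a difference, and none of the pairs was tested. How far such ratios vary between libraries of the same condition is not known from 1 library each.

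**Figure D2:**
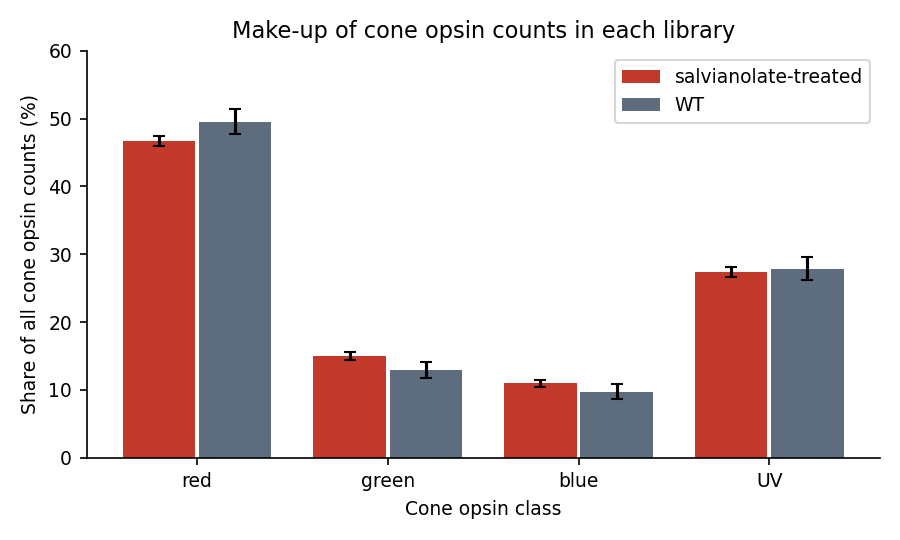
Share of all cone opsin counts (%) taken by the red, green, blue and UV classes in the salvianolate-treated library (red bars, left) and the WT library (grey bars); whiskers are exact 95% binomial intervals. The red share is 46.7% in the treated and 49.5% in the WT library, and the green share is 14.97% in the treated and 12.9% in the WT library.

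Among all genes above 1 CPM, 2.69% met the rule for 2-fold higher in the treated library and 0.378% that for 4-fold higher. The 5 cone opsins above that floor, opn1lw2, opn1mw1, opn1mw2, opn1sw2 and OPN1SW, all met both rules, which the choice of these genes fixes. The other 3, opn1lw1, opn1mw3 and opn1mw4, were under the floor in both libraries. Among the 11621 genes that reached 10 CPM in either library, the ratio of opn1mw1 ranked 2, that of opn1sw2 4, that of OPN1SW 8 and that of opn1lw2 11 from the top. By CPM the most abundant opsin, opn1lw2, held place 343 of all genes in the treated library and place 2242 in the WT library. The least abundant of the 5, opn1mw2, held place 15767 in the treated and place 20662 in the WT library.

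**Figure D3:**
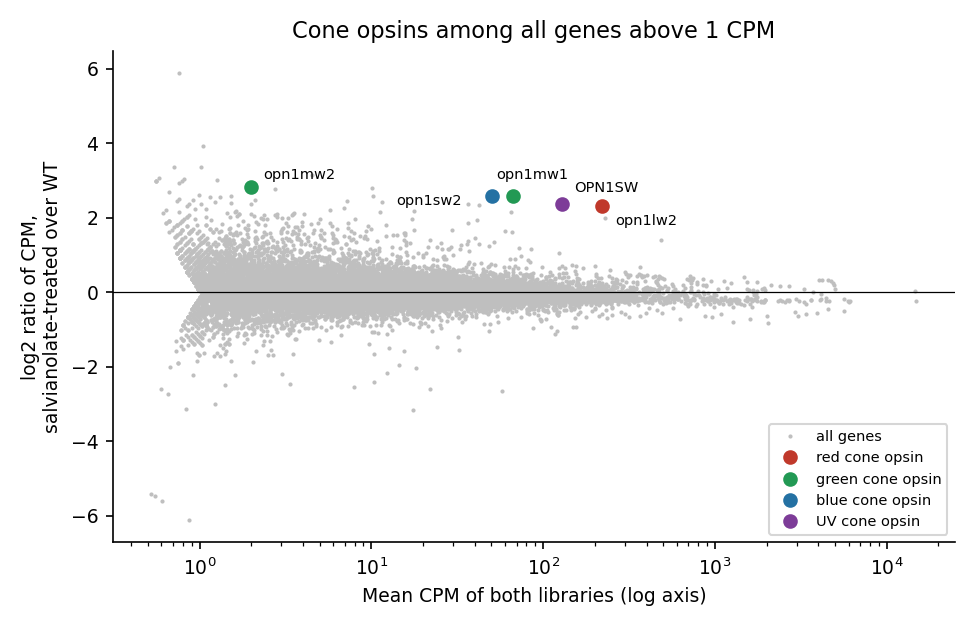
The log2 ratio of CPM, salvianolate-treated over WT, against the mean CPM of both libraries (log axis) for the 19829 genes that reached 1 CPM in either library (grey), with the 5 cone opsins among them coloured by class. The opsins lie between 2.31 and 2.83, while the median of all genes is -0.002.

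The 5 genes whose ratio was most like that of the summed cone opsins were also genes of photoreceptors. They were sought among genes that reached 10 CPM in either library. Only 16 of that pool were at least 4-fold higher, and opn1lw2, opn1mw1, opn1sw2 and OPN1SW were among them. Few genes could thus lie near the summed opsins, and the likeness was not tested. Of the genes named next, GRK7 and rom1a reached 10 CPM through the treated library alone. Likeness was the distance in log2 ratio, which rests on 2 libraries and so on 1 difference, and the summed opsins had a log2 ratio of 2.40 (2.34 to 2.46). Nearest was GRK7 (ENSDARG00000020602), the kinase that shuts off cone opsins, at 19.4 CPM in the treated and 3.61 CPM in the WT library, 0.022 away. The alpha subunit of cone transducin came next, and its beta and gamma subunits came after rom1a. GNAT2 (alpha) stood at 61.3 CPM in the treated and 11.8 CPM in the WT library, 0.027 away. The beta subunit gene gnb3b had 70.8 CPM in the treated and 14.0 CPM in the WT library, 0.064 away, and the gamma subunit gene GNGT2 (ENSDARG00000103543) had 89.05 CPM in the treated and 15.5 CPM in the WT library, 0.119 away. Between GNAT2 and gnb3b came rom1a, which encodes a protein of the outer segment disc rim, at 12.2 CPM in the treated and 2.198 CPM in the WT library, 0.058 away. Other genes of the same names were less like the opsins. A second GRK7 (ENSDARG00000055534) had a log2 ratio of 0.71 (-0.28 to 1.80), and a second GNGT2 (ENSDARG00000010680) had 1.12 (0.76 to 1.49). The ratio of cone opsin counts to GNAT2 counts was 12.9 (12.1 to 13.6) in the treated and 12.6 (11.0 to 14.5) in the WT library. GNAT2 was named for this likeness, so the proportion restates it.

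Cone phototransduction genes as a list, which includes GRK7 and the transducin subunits, were mostly higher in the treated library. Of 29 genes, 24 reached 1 CPM in either library, and 19 of these were at least 2-fold higher, against 2.69% of all genes; none was 2-fold lower, against 0.721% of all genes. Their median log2 ratio was 1.58, with a median of -0.002 over all genes. Of the 24, 6 reached 1 CPM through the treated library alone and so enter because they are higher there; of the 18 that reached it in WT, 15 met the 2-fold rule. The most abundant by the mean CPM of both libraries, as in every list below, was ARR3 (ENSDARG00000056511), a cone arrestin. CPM is not scaled to length, and by FPKM the order of genes can differ. By FPKM GNGT2 (ENSDARG00000103543) stood above ARR3 in both libraries. This ARR3 gene stood at 106 CPM in the treated and 23.8 CPM in the WT library, a log2 ratio of 2.16 (2.01 to 2.31). Another gene named ARR3 (ENSDARG00000098475) had 1.58 (1.32 to 1.87). PDC (ENSDARG00000017634), which encodes the transducin-binding phosducin, had the highest ratio at 2.80 (2.38 to 3.28). RGS9 (ENSDARG00000045156), which speeds the shut-off of transducin, had the lowest at 0.37 (-0.04 to 0.79). A second gene of that name (ENSDARG00000037925) had 1.96 (1.25 to 2.80). There were 1.48 cone opsin counts (1.44 to 1.51) for each count of this list in the treated library, against 1.11 (1.05 to 1.17) in the WT library. The opsin ratios that chose the opsins enter these values, which are given as a description. Without opn1lw2 the ratio was 0.787 in the treated and 0.559 in the WT library.

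Some genes of the rod cascade were higher as well. Rod transducin alpha, GNAT1, stood at 23.6 CPM in the treated and 7.80 CPM in the WT library, a log2 ratio of 1.60 (1.33 to 1.88). The most abundant reported gene of the list, the arrestin gene sagb, had 60.4 CPM in the treated and 24.6 CPM in the WT library, 1.29 (1.14 to 1.45). Of 17 genes on the rod list, 15 were above the floor, 9 of them were 2-fold higher or more, against 2.69% of all genes, and the median log2 ratio was 1.36. Of the 15, 5 reached the floor through the treated library alone, and 5 of the other 10 were 2-fold higher or more. The opsin kinase gene grk1b, which entered through the treated library alone, had the highest ratio, 3.16 (2.47 to 4.01), at 8.16 CPM in the treated and 0.889 CPM in the WT library. It was listed with the rod genes, although zebrafish cones are known to express it. The gene nrl, a transcription factor gene of rods, had the lowest ratio, -0.03 (-0.48 to 0.42). There were 4.54 cone opsin counts (4.38 to 4.72) for each count of the reported genes of this list in the treated library, against 1.84 (1.73 to 1.96) in the WT library. A name of the list that is not reported here does not enter this ratio. Without opn1lw2 the ratio was 2.42 in the treated and 0.929 in the WT library.

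Many genes of the outer segment and photoreceptor synapse lists were higher in the treated library. On the outer segment list 10 of 12 genes above the floor were 2-fold higher or more, against 2.69% of all genes, and the median log2 ratio was 1.36. PRPH2 (ENSDARG00000038018) of the disc rim had the highest ratio at 2.59 (2.19 to 3.04). The list also holds ELOVL4, a fatty acid elongase: 1 gene of that name (ENSDARG00000027495) was its most abundant member by the mean of both libraries though not in WT, at 53.1 CPM in the treated and 20.3 CPM in the WT library, and the other (ENSDARG00000006773) had the lowest ratio, -0.01 (-0.19 to 0.17), at 25.7 CPM in the treated and 25.9 CPM in the WT library. On the photoreceptor synapse list 10 of 12 were so, again against 2.69% of all genes, with a median log2 ratio of 1.62, while the summed list had 0.81 (0.75 to 0.88). Of these 12, 4 reached the floor through the treated library alone, and 7 of the other 8 were 2-fold higher or more. The complexin gene cplx4c had the highest ratio, 2.60 (1.36 to 4.43), at 1.72 CPM in the treated and 0.262 CPM in the WT library, and is one of the 4 that entered through the treated library. The lowest ratio was that of cacna2d4a, a calcium channel subunit gene, at 0.25 (-0.73 to 1.27). The ribbon synapse gene ctbp2a, the most abundant, had 0.39 (0.31 to 0.47).

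Opsins outside the cones and rods differed less. Of 30 genes of non-visual and other opsins, 16 were above the floor, 6 of these were at least 2-fold higher, against 2.69% of all genes, and the median log2 ratio was 0.86. Of the 16, 4 reached the floor through the treated library alone, and 3 of the other 12 were at least 2-fold higher. Summed, they stood at 85.0 CPM in the treated and 55.7 CPM in the WT library, 1.53-fold higher (1.41 to 1.65). The highest ratio was that of opn9, 2.06 (1.27 to 3.01), at 3.35 CPM in the treated and 0.785 CPM in the WT library. This interval takes in cone opsin ratios, and opn9 reached the floor through the treated library alone. The lowest ratio was that of OPN5, -0.42 (-1.08 to 0.23). The most abundant, rgrb, a retinal G protein-coupled receptor gene, had 0.14 (-0.10 to 0.38). The pineal organ also holds cone-like photoreceptors. The pineal list had 9 genes, 0 of its 6 members above the floor were 2-fold higher or lower, near the shares of 2.69% and 0.721% of all genes, and its sum stood at 54.0 CPM in the treated and 48.1 CPM in the WT library. Its ratios ran from -0.35 (-1.26 to 0.53) for bsx to 0.34 (-0.17 to 0.85) for aanat2, the melatonin synthesis gene, and its most abundant gene LHX4 had 0.21 (0.05 to 0.36).

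Genes that direct cone classes, most of them transcription factor genes, had log2 ratios between -0.38 and 1.02. THRB, the thyroid hormone receptor gene that red cones need in zebrafish, stood at 30.2 CPM in the treated and 31.0 CPM in the WT library, a log2 ratio of -0.04 (-0.20 to 0.13). The gene tbx2b, which UV cones need, was looked up by its family name TBX2, and the 2 genes of that name had -0.05 (-0.16 to 0.07) and 0.29 (0.15 to 0.42). The green and blue cone regulator six7 had 30.4 CPM in the treated and 26.9 CPM in the WT library, 0.18 (0.0030 to 0.35). The blue cone regulator foxq2 had 2.74 CPM in the treated and 2.15 CPM in the WT library, 0.35 (-0.26 to 0.97). The photoreceptor factor crx (ENSDARG00000011989) stood higher, at 185 CPM in the treated and 110 CPM in the WT library, 0.75 (0.67 to 0.83), and a second gene named CRX (ENSDARG00000043483) had 0.38 (0.24 to 0.51). Of 17 such genes above the floor, rx1, a retinal homeobox gene, alone was at least 2-fold higher, at 17.7 CPM in the treated and 8.69 CPM in the WT library; over all genes the share is 2.69%. By the mean of both libraries the most abundant was NEUROD1, at 181 CPM in the treated and 142 CPM in the WT library, 0.36 (0.28 to 0.43), the lowest otx2a, with -0.38 (-0.70 to -0.07), and the median was 0.18.

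Lists of other genes of the eye had median log2 ratios between -0.24 and 0.50. These were lower than those of the phototransduction, outer segment and photoreceptor synapse lists. Visual cycle genes had a median log2 ratio of 0.50 over 14 members above the floor. Of these rbp3, the retinoid-binding protein gene of photoreceptors, alone was at least 2-fold higher, at 1.21 (0.99 to 1.43), against 2.69% of all genes. Their most abundant, rbp4l, had 0.51 (0.37 to 0.65) and the lowest, rdh12l, -0.34 (-0.99 to 0.30). Genes of bipolar, horizontal, amacrine and ganglion cells had a median of 0.30 over 19 members. They ran from atoh7, a gene of ganglion cell precursors, at -0.74 (-1.12 to -0.37), to cabp5a, a bipolar cell gene, at 1.21 (0.19 to 2.41), and the most abundant by the mean of both libraries was TFAP2A at 0.18 (0.10 to 0.26). In the treated library alone the gene named GNB3 (ENSDARG00000004358), a G protein beta subunit gene, stood above TFAP2A, at 167 CPM in the treated and 79.5 CPM in the WT library. Of the 19 members, 2 were at least 2-fold higher, GNB3 and cabp5a, against 2.69% of all genes. The gene cabp5a reached the floor through the treated library alone, at 1.37 CPM in the treated and 0.576 CPM in the WT library. Lens genes summed to 6905 CPM in the treated and 5391 CPM in the WT library, 1.28-fold higher (1.27 to 1.29). All 18 lens genes above the floor had a log2 ratio above 0, where the median over all genes was -0.002. For 15 of these the interval lay above a ratio of 1, as it did for 17.4% of all genes. The lens log2 ratios ran from 0.06 (-0.08 to 0.20) for lim2.3 to 0.91 (0.20 to 1.68) for crygm5, and the most abundant, crybb1l2, had 0.31. Müller glia and pigment epithelium genes, some of which other tissues also use, had a median of -0.24 over 17 members. They ran from the apolipoprotein gene apoeb, also the most abundant, at -0.72 (-0.74 to -0.69) to rlbp1a, a retinoid-binding protein gene, at 0.87 (0.67 to 1.07). The genes named RPE65 on this list went both ways, with 0.63 (0.40 to 0.88), 0.49 (-0.01 to 1.01) and -0.22 (-0.40 to -0.04). The part of these cell types in the opsin values was not tested. Outside the eye, heart genes had a median of -0.21 over 12 members, from -0.89 for nppa, a natriuretic peptide gene, to 0.38 for the most abundant gene named MYH6 (ENSDARG00000079564). Skeletal muscle genes had a median of 0.21 over 12 members, from -0.06 for MYOG to 1.47 for myhb, with the most abundant, actc1b, at 0.05.

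**Figure D4:**
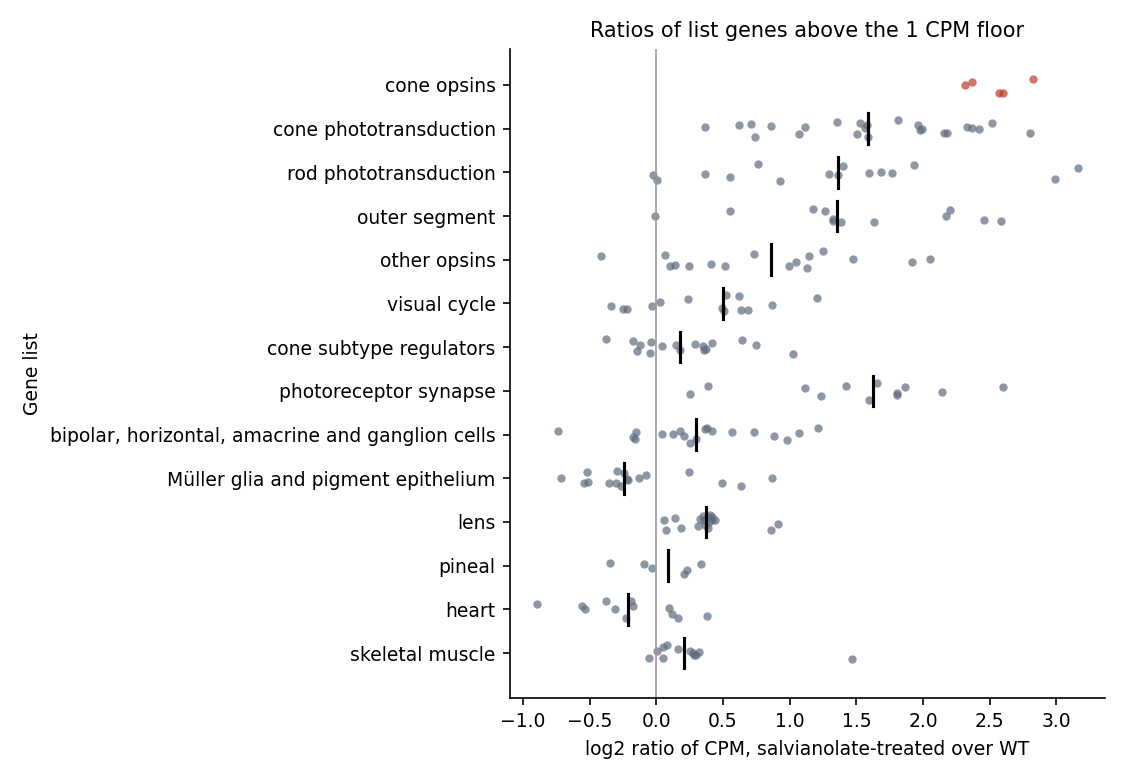
The log2 ratio of CPM, salvianolate-treated over WT, of each gene that reached 1 CPM in either library, by list; points are genes, black bars the medians of lists other than the cone opsins (red). Cone opsins lie at 2.31 to 2.83. The cone and rod phototransduction, outer segment and photoreceptor synapse lists have medians of 1.36 to 1.62, and other opsins 0.86. The cone, rod, synapse and other opsin medians include 6, 5, 4 and 4 genes that reached the floor through the treated library alone. Summed, the cone, rod, outer segment and synapse lists have log2 ratios of 1.98, 1.09, 1.17 and 0.81. All remaining lists, cone subtype regulators and visual cycle among them, have medians of -0.24 to 0.50.

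The genes beside the opsins on the chromosome had log2 ratios nearer to 0, where the median over all genes was -0.002. The opsins were chosen by their ratios, which fixes this contrast. By the gene order of RefSeq's GRCz12tu assembly, which is not the build of the deposited files and was used for gene order alone, opn1sw2, opn1lw1 and opn1lw2 stand side by side, and the 4 green opsins form a row of their own. The 3 protein-coding genes on either side of each of these groups and of the UV opsin were looked up, 18 in all. Of these, 14 were above the floor and 0 met the 2-fold rule in either direction, which is near the shares of 2.69% higher and 0.721% lower over all genes and says nothing particular of these places. Next to the blue opsin, hcfc1a had a log2 ratio of -0.22 (-0.28 to -0.16), and next to opn1lw2, gnl3l had 0.03 (-0.17 to 0.24). Between them opn1lw1, with 2 counts in the treated and 0 in the WT library, lies directly beside opn1lw2, the most abundant opsin. On either side of the green row, slc6a22.2 had -0.21 (-0.65 to 0.23) and synprb 0.47 (-0.30 to 1.28). Beside the UV opsin, calua had -0.09 (-0.20 to 0.0062) and tnpo3 -0.22 (-0.31 to -0.13). The largest difference among the 14 neighbours above the floor was that of fkbp5, near the green row, at 10.4 CPM in the treated and 18.5 CPM in the WT library, -0.82 (-1.08 to -0.57).

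**Figure D5:**
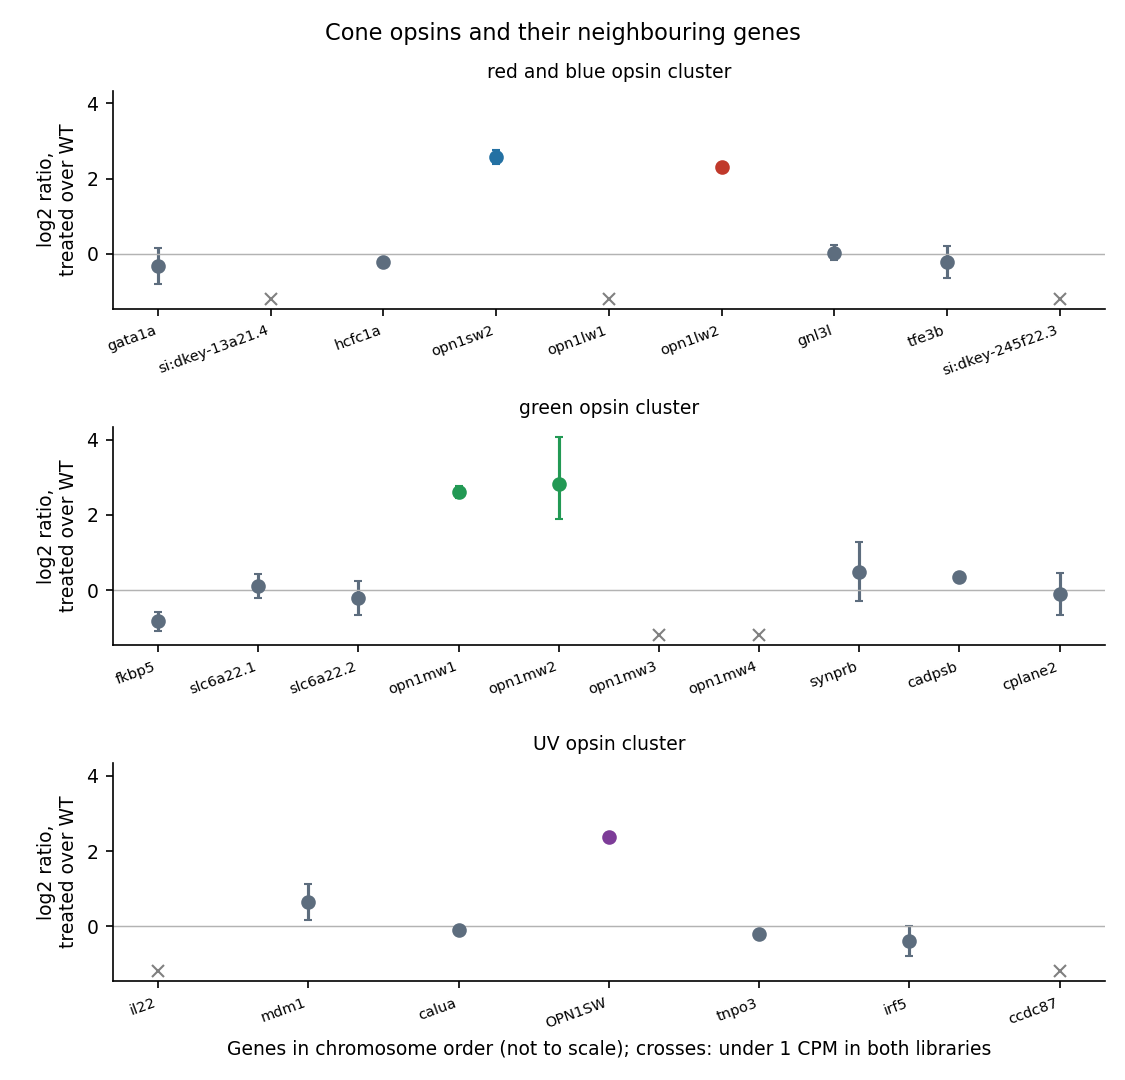
The log2 ratio of CPM, salvianolate-treated over WT, for cone opsins (coloured by class) and the 3 protein-coding genes on either side (grey) in chromosome order, not to scale; bars are exact 95% counting intervals and crosses mark genes under 1 CPM in both libraries. Opsins lie at 2.31 to 2.83, and the neighbours between -0.82 and 0.64, a contrast that the choice of the opsins by their ratios fixes.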

How the data were processed

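RNA of 1 salvianolate-treated and 1 WT zebrafish library was analysed, with groups taken from the genotype label. The deposited values are the authors' estimated counts (expected counts, not normalised) and FPKM (scaled to gene length and library size), per the file headers; the single-library files held the same counts for 26597 genes. All 8 cone opsins had whole counts, while 10.4% of the values of the treated and 10.3% of those of the WT library were not whole. The submitters' processing notes name the build danRer11 and the tools StringTie 1.3.1, HISAT2, Bowtie2 2.2.8, fastp 0.18.0, edgeR and DESeq2 without their roles. How reads shared by near-identical opsin copies were placed is not stated, so counts of single copies are less certain than class sums.

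Counts were rounded and scaled by TMM factors with edgeR 4.0.16 under R 4.3.3. Log2 ratios, treated over WT, used a prior of 0.5 counts and exact 95% intervals (Clopper-Pearson for ratios and shares, Poisson for CPM). Folds are ratios of CPM without the prior. Genes under 1 CPM in both libraries were left out, and a gene was counted as different at 2-fold with an interval excluding a ratio of 1. A count of 0 was drawn at the CPM of 3 counts, and no fold was given where both libraries had 3 counts or fewer. Intervals cover counting error only and not the spread between libraries. They are too narrow where reads are not independent molecules. The calling step was tested on simulated counts that held counting error only. Intervals came from scipy 1.17.1 and figures from matplotlib 3.10.9, under Python 3.11.15 with pandas 2.3.3 and numpy 2.4.6.

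A names table gave symbols to 23499 IDs. List names were matched ignoring case, else without the copy suffix, when all genes of that name entered. Named genes are the opsins, from each list the members of highest ratio, lowest ratio and greatest abundance (mean CPM of both libraries), a fixed set of photoreceptor genes, and the 5 genes with at least 10 CPM and a ratio nearest to the summed opsins; the neighbours and MYL7 were chosen by place and role, and GNB3 after its values were seen. One name of the rod list and of the fixed set is not reported here. The opsins and all lists were chosen with earlier results of these data known. Alternatives were other scalings (total counts, DESeq2 1.42.0 median of ratios, upper quartile), FPKM with a pseudocount of 0.5, a prior of 2 counts, other floors and folds, no interval, and sums without the most abundant copy.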

Additional observations from a re-analysis of the deposited data

How the results depend on the processing

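No paired analysis was possible because there was a single library for either condition. The log2 ratio of each detected opsin and class stayed above 0 under every scaling, prior and unit tried. For all cone opsins together it was 2.40, and 2.46 with total counts, 2.46 with FPKM and 2.48 without opn1lw2. The green class without opn1mw1 had 2.87, and opn1mw2 by FPKM with its pseudocount 1.76, since 0.28 FPKM in WT is below that pseudocount. The 5 cone opsins counted as at least 2-fold higher became 4 with a floor of 5 CPM, which opn1mw2 misses, and stayed 5 otherwise.

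By summed FPKM the shares in the treated library were 15.54% green, 12.7% blue and 25.2% UV, and in the WT library 11.27% blue and 25.73% UV. Cone opsins per unit of the cone phototransduction list were 1.159 (treated) and 0.888 (WT) by FPKM and 0.787 (treated) and 0.559 (WT) without opn1lw2. Per unit of the reported genes of the rod list they were 2.423 (treated) and 0.929 (WT) without opn1lw2.

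Over all genes, 533 were higher and 143 lower. By FPKM, without an interval, these were 312 and 54; a floor of 5 CPM left 181 and 33; at 1.5-fold 1204 and 523; at 4-fold 75 and 21; without a floor 235 were lower. Depth limits statements on opn1lw1, opn1mw3 and opn1mw4, which had 2 counts or fewer.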
